A study of Homo sapiens with 18 samples.

Results

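The 34 genes described here encode enzymes and regulators of cholesterol and fatty acid synthesis. They were taken by symbol as a fixed list from a table of 13358 genes, each of the 34 was found once, and all 34 passed the filter on low values. RNA had been sequenced from HUDEP1, an immortalised human erythroid progenitor line, as poly(A) libraries. Clones 1KI9 and 1D5 expressed GATA1s, the short form of the erythroid transcription factor GATA1, and clone FL expressed full-length GATA1. Each clone was sampled at day 4 of differentiation and in expansion, with 3 libraries per group, 6 groups and 18 libraries. Cells of all groups received doxycycline at 1 µg/mL, erythropoietin at 3 U/mL and stem cell factor at 50 ng/mL. The day-4 medium was IMDM, listed without dexamethasone, with 2% fetal bovine serum, 3% human AB serum, 10 µg/mL insulin, 3 U/mL heparin and 1 mg/mL holo-transferrin. The expansion medium was SFEM II with dexamethasone at 1 µM. Serum, which carries lipoprotein cholesterol and fatty acids, was thus listed for day 4 and not for expansion. With 1 FL clone, genotype and clone cannot be told apart in any comparison with FL. The labels do not say whether the libraries of a group are from separate cultures, and every p-value rests on their spread, which may be technical.

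Cells make cholesterol from acetyl-CoA. The mevalonate pathway yields isoprenoid units that are joined into squalene, and squalene is oxidised, cyclised to lanosterol and trimmed to cholesterol. Fatty acids are built from the same precursor by acetyl-CoA carboxylase and fatty acid synthase and are then elongated, desaturated and activated. Many of these genes share a control: when membrane sterol is low, SCAP escorts SREBP transcription factors out of the endoplasmic reticulum and they switch on the pathway, and when sterol is high, the INSIG proteins hold the SCAP complex back. Erythroblasts build and then remodel a cholesterol-rich plasma membrane as they mature.

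Globin transcripts made up 12.4% to 13.3% of the listed values in 1KI9, 19.3% to 20.6% in 1D5 and 38.2% to 39.4% in FL at day 4, against 4.03% to 10.6% over all expansion libraries. All 12 erythroid markers were at 1 or more in every library. The summed value of 7 monocyte and neutrophil markers at day 4 was 407 to 430 in 1KI9 and 334 to 356 in 1D5, against 44.4 to 48.3 in FL, and 2 of them, CSF1R and TYROBP, were listed at 0 in every FL day-4 library. Most of that sum was CD68, at 368.73 to 389.16 in 1KI9 and 319.34 to 343.45 in 1D5, against 40.27 to 43.44 in FL. CSF1R, ELANE and CEBPA were under 1 in every day-4 library. LYZ, TYROBP and SPI1 were also higher in both GATA1s clones, each at 18.05 or less. The 3 megakaryocyte markers in the table summed to 16.2 to 17.7 in 1KI9 and 19.9 to 23.3 in 1D5, against 4.01 to 4.46 in FL. Most of this was ITGB3, at 14.05 to 15.76 in 1KI9 and 18.93 to 21.73 in 1D5, against 3.26 to 3.57 in FL. The 7 mast cell, basophil and eosinophil markers summed to 592 to 603 in 1KI9 and 414 to 455 in 1D5, against 424 to 438 in FL. Within the last list PRG2 was lower in the GATA1s clones (29.14 to 31.56 in 1KI9 and 15.96 to 17.7 in 1D5, against 302.26 to 315.55 in FL), and TPSB2 was higher (256.97 to 275.42 and 143.55 to 152.62, against 38.98 to 43.21), as was KIT (256.95 to 284.56 and 224.36 to 273.08, against 69.07 to 73.07). The part of these shifts in the lipid gene results was not tested. Adipocyte and hepatocyte markers were not analysed here. In bulk RNA, fewer cells of a type and less RNA per cell cannot be told apart. The expansion and day-4 values were scaled separately, the day-4 values in a way not given in the sources used here, so any level set across the conditions also crosses that step.

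**Figure D1:**
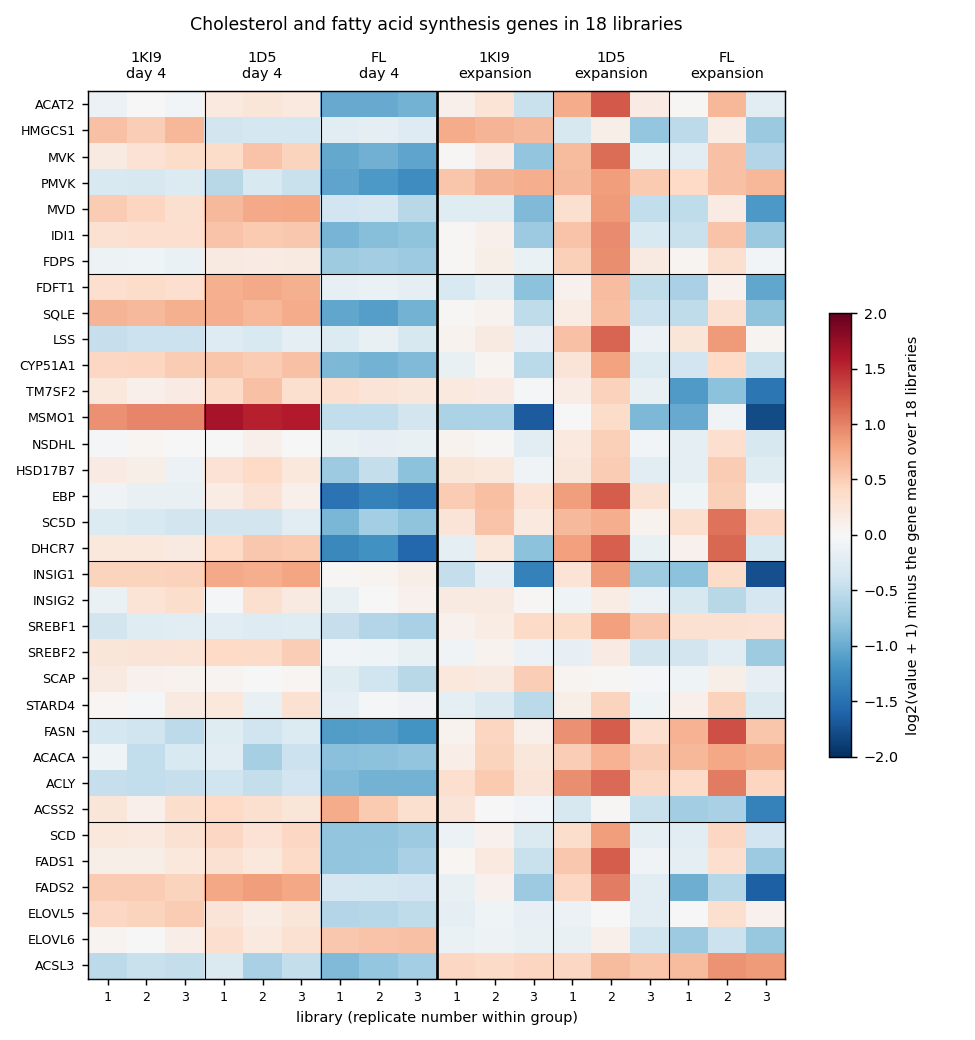
Each row is 1 of the 34 genes, ordered by role, and each column 1 of 18 libraries. Colour gives log2(value + 1) minus the mean of that gene over the 18 libraries. The FL libraries at day 4 are the lowest for most genes of the mevalonate and squalene steps, and in expansion replicate 2 is often the highest and replicate 3 the lowest.

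At day 4 both GATA1s clones stood above FL for most of the pathway. The summed value of the 34 genes was 1817, 1821 and 1838 in the 1KI9 libraries and 2087, 2065 and 2096 in the 1D5 libraries, against 1133, 1130 and 1115 in the FL libraries. The groups did not overlap. By limma with Benjamini-Hochberg adjustment over all genes tested and a threshold of 0.05, 25 of 34 genes were higher and 1 was lower in 1KI9 (73.5% and 2.94%), where 58.9% of 11083 tested genes were higher and 17.5% lower. In 1D5, 25 were higher and 1 was lower, where 54.8% of all genes were higher and 16.3% lower. The median log2 difference of the 34 genes was 0.66 in 1KI9 and 0.75 in 1D5, beside 0.32 and 0.26 over all genes. Most genes were thus higher than in FL at this scaling. With median-of-ratios scaling the medians over all genes were -0.02 and -0.03, and those of the 34 genes 0.28 and 0.43. On that scale 18 genes were higher and 3 lower in 1D5 (52.9% and 8.82%, against 29.9% and 35.2% of all genes). In 1KI9 it gave 13 higher and 4 lower. There the 38.2% of members that were higher lay near the 33.6% of all genes, while 11.8% of members and 36.6% of all genes were lower. Both clones were set against the same 3 FL libraries.

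The 7 mevalonate pathway genes, which carry acetyl-CoA to farnesyl diphosphate, were all higher in 1KI9 at day 4, and 6 of 7 were higher in 1D5. Of all genes, 58.9% were higher in 1KI9 and 54.8% in 1D5. MVK, mevalonate kinase (chromosome 12:109573255-109598117, GRCh38), was at 14.23, 15.38 and 16.28 in 1KI9 and at 16.41, 18.96 and 17.35 in 1D5, against 5.63, 5.92 and 5.45 in FL. Every GATA1s library stood above every FL library. The log2 difference of MVK was 1.29 ± 0.29 (SE, limma adjusted p = 5.29e-04) in 1KI9 and 1.48 ± 0.29 (adjusted p = 1.72e-04) in 1D5. MVK overlaps MMAB on the opposite strand, so its level is uncertain. By the same test IDI1, the isopentenyl diphosphate isomerase, differed by 1.19 and 1.41, ACAT2, the cytosolic thiolase, by 0.92 and 1.20, and MVD, mevalonate diphosphate decarboxylase, by 0.84 and 1.15 in 1KI9 and 1D5. ACAT2 overlaps TCP1 and SOD2 on the opposite strand. PMVK, phosphomevalonate kinase, differed by 0.85 and 0.72 in 1KI9 and 1D5, and FDPS, farnesyl diphosphate synthase, by 0.60 and 0.89. FDPS has 8 annotated pseudogenes with which reads could be shared. With median-of-ratios scaling MVD and FDPS were no longer called in 1KI9 (0.46 and 0.22).

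HMGCS1, which makes the HMG-CoA that enters the pathway, set the GATA1s clones apart. It was at 37.98, 35.55 and 40.22 in 1KI9 and at 19.17, 19.35 and 19.35 in 1D5, against 21.37, 21.72 and 20.67 in FL. 1KI9 was above both other clones without overlap, and 1D5 lay just under FL. The log2 difference from FL was 0.80 ± 0.18 (SE, limma adjusted p = 6.72e-04) in 1KI9 and -0.13 ± 0.18 in 1D5 (adjusted p = 0.526, 95% interval -0.52 to 0.25). With median-of-ratios scaling 1D5 was called lower (-0.45). In expansion the values were 42.19, 40.29 and 39.56 in 1KI9 and 19.67, 26.94 and 14.21 in 1D5, against 17, 27.69 and 14.49 in FL. 1KI9 was again above every other library, by 1.06 ± 0.18 over FL (adjusted p = 8.17e-05). The difference between 1KI9 and 1D5 was 0.94 ± 0.18 at day 4 (adjusted p = 0.00144) and 1.01 ± 0.18 in expansion (adjusted p = 2.59e-04).

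**Figure D2:**
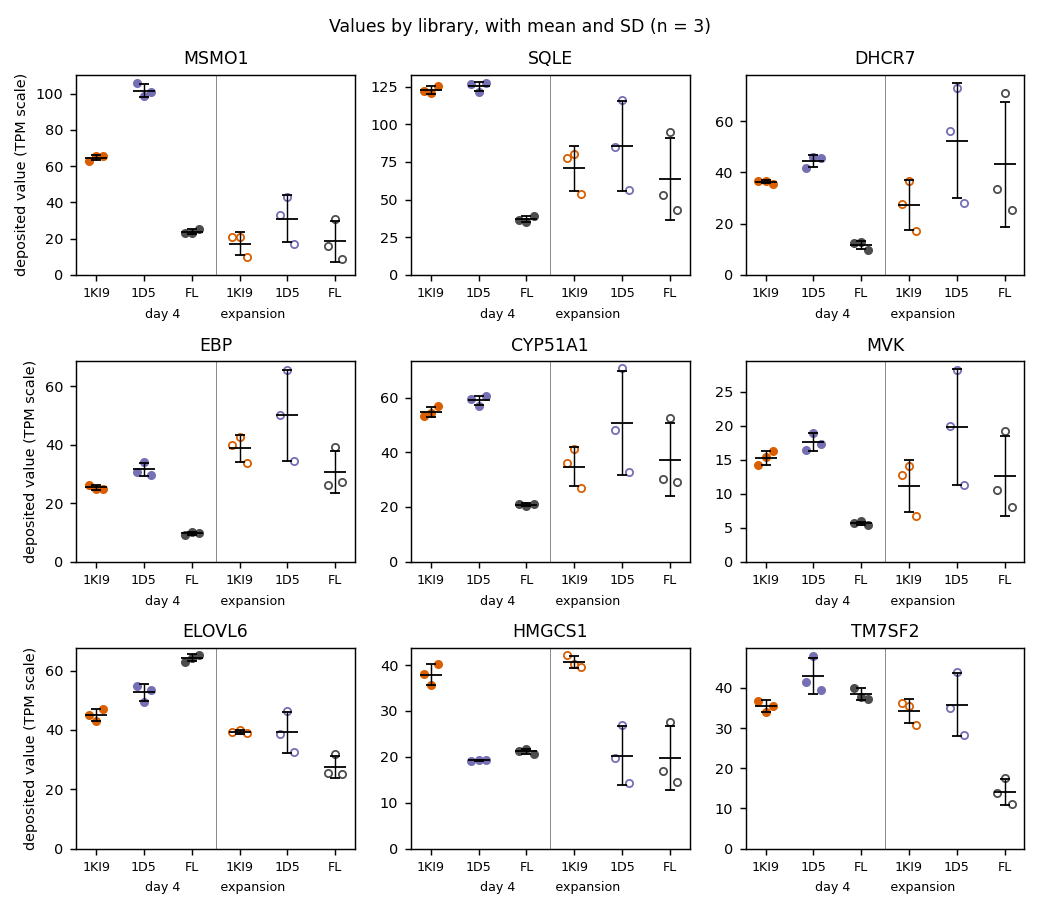
Deposited value (TPM scale) of 9 genes in every library, by clone, with day 4 left of expansion. Points are libraries, and bars give the mean and SD (n = 3). The first 6 panels show FL at day 4 below both GATA1s clones, ELOVL6 shows the opposite order, HMGCS1 is high in 1KI9 in both conditions, and TM7SF2 is low in FL in expansion.

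The steps from squalene to cholesterol held the members with the largest day-4 differences from FL. As a group their median log2 difference, 0.72 in 1KI9 and 0.97 in 1D5, was below that of the mevalonate pathway genes, 0.85 and 1.15. Of these 11 genes, 7 were higher in 1KI9 and 8 in 1D5, and 0 were lower, where 58.9% and 54.8% of all genes were higher. With median-of-ratios scaling 6 were higher and 2 lower in 1KI9, and 7 and 0 in 1D5. On that scale 33.6% and 29.9% of all genes were higher. The summed value of the 11 genes ran from 597 to 602 in 1KI9 and from 728 to 741 in 1D5, against 328 to 334 in FL. MSMO1, the sterol C4-methyl oxidase (chromosome 4:165327623-165343160), was at 62.86, 65.49 and 65.7 in 1KI9 and at 105.62, 98.74 and 100.81 in 1D5, against 22.96, 23.03 and 25.37 in FL. The lowest GATA1s library was far above the highest FL library, and 1D5 was above 1KI9 without overlap. The log2 difference from FL was 1.41 ± 0.34 (SE, limma adjusted p = 0.00119) in 1KI9 and 2.05 ± 0.34 (adjusted p = 3.82e-05) in 1D5. The difference between 1KI9 and 1D5 did not pass (-0.64 ± 0.34, adjusted p = 0.209, 95% interval -1.37 to 0.08), but did when only the libraries compared were fitted (-0.64 ± 0.04, adjusted p = 2.31e-05), without the expansion libraries in the estimate of the spread.

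SQLE, squalene epoxidase, which adds oxygen to squalene, was at 122.39, 120.56 and 125.69 in 1KI9 and at 126.4, 121.61 and 127.55 in 1D5, against 36.58, 35.09 and 39.03 in FL. Its log2 difference was 1.71 ± 0.23 (limma adjusted p = 3.26e-06) in 1KI9 and 1.74 ± 0.23 (adjusted p = 3.51e-06) in 1D5. The GATA1s clones overlapped each other and neither overlapped FL. DHCR7, which carries out the last reduction of the Kandutsch-Russell route (chromosome 11:71428193-71452868), was at 36.55, 36.65 and 35.55 in 1KI9 and at 41.81, 45.81 and 45.63 in 1D5, against 12.26, 12.94 and 9.86 in FL. Its log2 difference was 1.56 ± 0.32 in 1KI9 (limma adjusted p = 2.87e-04) and 1.85 ± 0.32 in 1D5 (adjusted p = 6.43e-05).

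EBP, the sterol isomerase (chromosome X:48521158-48528716), was at 26.36, 24.92 and 24.96 in 1KI9 and at 30.82, 34.08 and 29.81 in 1D5, against 9.3, 10.23 and 9.73 in FL. CYP51A1, lanosterol demethylase (chromosome 7:92112151-92134803), was at 53.22, 54.31 and 56.88 in 1KI9 and at 59.38, 57 and 60.49 in 1D5, against 21.02, 20.29 and 21.19 in FL. All 3 FL libraries were the lowest for both genes. The log2 differences in 1KI9 and 1D5 were 1.30 and 1.60 for EBP, each ± 0.17, and 1.35 and 1.46 for CYP51A1, each ± 0.22 (limma adjusted p between 1.70e-07 and 2.10e-05). CYP51A1 has 3 annotated pseudogenes and 2 overlapping gene models on its strand, so its level is uncertain. The calls of MVK, MSMO1, SQLE, DHCR7, EBP and CYP51A1 all held with median-of-ratios scaling, with differences between 0.94 and 1.33 in 1KI9 and between 1.14 and 1.73 in 1D5.

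The remaining genes of this stretch moved less. HSD17B7, a ketosteroid reductase, differed by 0.72 ± 0.18 in 1KI9 and 0.97 ± 0.18 in 1D5 (limma adjusted p = 0.00160 and 1.32e-04), and it has 2 annotated pseudogenes. FDFT1, squalene synthase, was at 212.13, 216.89 and 211.54 in 1KI9 and at 274.24, 285.42 and 275.09 in 1D5, against 150.3, 152.28 and 145.92 in FL. No FL library reached either GATA1s clone, but FDFT1 passed in 1D5 (0.89 ± 0.24, adjusted p = 0.00324) and not in 1KI9 (0.51 ± 0.24, adjusted p = 0.0640). With only the libraries compared it passed in 1KI9 too (0.51 ± 0.03, adjusted p = 3.07e-07). SC5D, the sterol C5-desaturase, differed by 0.49 ± 0.17 in 1KI9 (adjusted p = 0.0171) and 0.48 ± 0.17 in 1D5 (adjusted p = 0.0201). Without FL day-4 replicate 1 these fell to 0.43 (adjusted p = 0.0595) and 0.42 (adjusted p = 0.0680), without 1D5 day-4 replicate 3 the second was 0.43 (adjusted p = 0.0649), and median-of-ratios scaling ended both calls. LSS, lanosterol synthase, was at 9.3 to 9.47 in 1KI9 and 10.41 to 11.31 in 1D5, against 10.35 to 11.73 in FL, and was not called in either clone (-0.19 and -0.01). TM7SF2, the sterol C14-reductase, and NSDHL, the C4-decarboxylase, were also not called. Under median-of-ratios scaling LSS and TM7SF2 were lower in 1KI9 (-0.55 and -0.49).

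**Figure D3:**
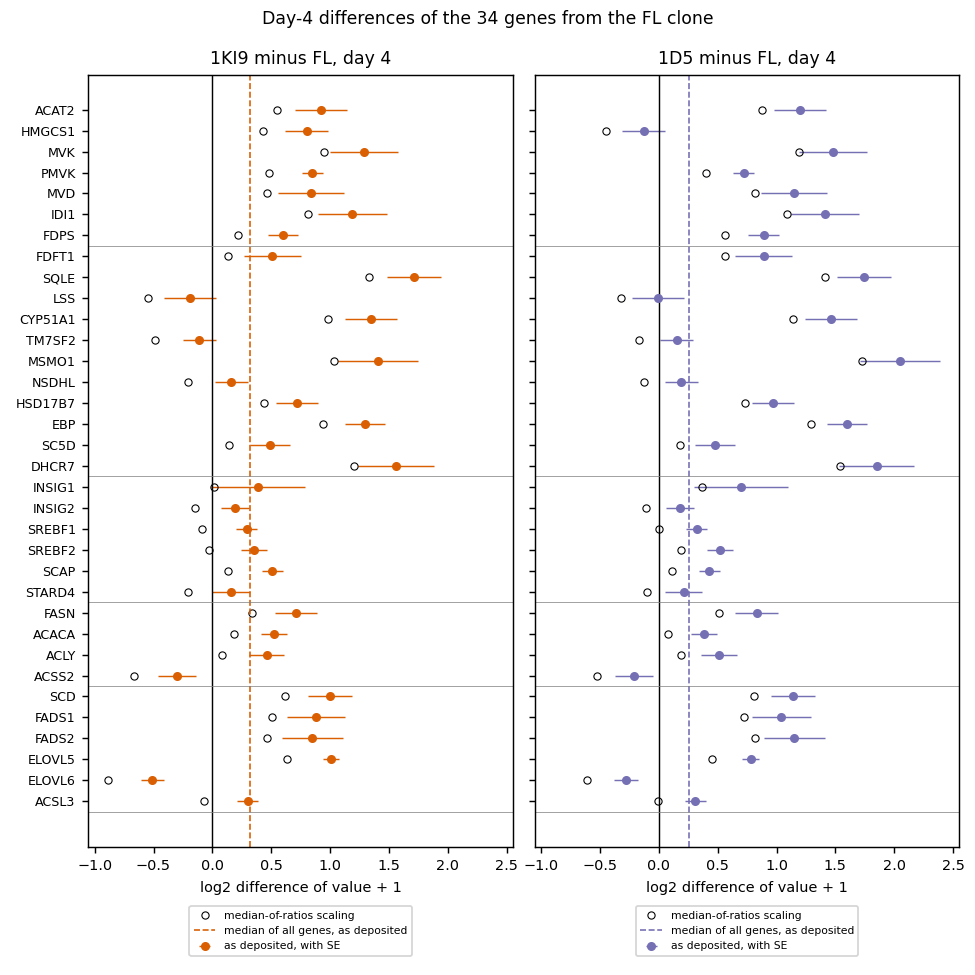
Log2 difference of value + 1 at day 4, 1KI9 minus FL on the left and 1D5 minus FL on the right. Filled points with bars are estimates with their SE, open points the same after median-of-ratios scaling, and the dashed line is the median of all genes. MSMO1, SQLE and DHCR7 lie farthest to the right, and ELOVL6 lies farthest to the left.

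Promoter windows of 300 bases, from 250 before to 50 after an annotated start (RefSeq, GRCh38.p14), were matched by symbol for 30 of the 34 genes, 41 windows in all. Windows are shown for the 2 genes with a window and the largest day-4 differences, MSMO1 and DHCR7, and for SREBF2, the only one of the 30 genes with a match to the sterol element searched. Capitals mark CCAAT or its reverse complement and, in SREBF2, the 9-base match to TCACNCCAC that precedes it. DHCR7 has another window, with 0 CCAAT matches.
MSMO1 chr4:165327419-165327718 (+ strand): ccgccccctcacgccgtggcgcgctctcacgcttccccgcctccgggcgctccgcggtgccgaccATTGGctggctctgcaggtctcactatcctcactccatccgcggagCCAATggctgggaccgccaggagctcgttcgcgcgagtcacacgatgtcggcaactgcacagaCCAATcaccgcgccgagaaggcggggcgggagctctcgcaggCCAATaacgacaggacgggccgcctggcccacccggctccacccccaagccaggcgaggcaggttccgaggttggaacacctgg
DHCR7 chr11:71448344-71448643 (- strand): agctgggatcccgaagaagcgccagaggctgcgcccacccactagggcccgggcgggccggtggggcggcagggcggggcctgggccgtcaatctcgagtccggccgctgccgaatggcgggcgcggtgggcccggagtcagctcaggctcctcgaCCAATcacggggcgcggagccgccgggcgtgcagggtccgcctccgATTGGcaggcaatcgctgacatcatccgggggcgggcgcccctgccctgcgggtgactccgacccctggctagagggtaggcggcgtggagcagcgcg
SREBF2 chr22:41832855-41833154 (+ strand): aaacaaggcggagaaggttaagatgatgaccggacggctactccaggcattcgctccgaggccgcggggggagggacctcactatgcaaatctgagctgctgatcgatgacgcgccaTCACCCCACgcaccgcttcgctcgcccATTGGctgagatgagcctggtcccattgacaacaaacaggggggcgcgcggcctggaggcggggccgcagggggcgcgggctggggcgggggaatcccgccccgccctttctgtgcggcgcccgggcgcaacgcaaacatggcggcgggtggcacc

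Both strands were searched. CCAAT, the NF-Y box, was in the windows of 23 of 30 genes and in 27 of their 41 windows, against 34.6% of all 35116 windows, with 4 matches in the MSMO1 window and 2 in that of DHCR7. TCACNCCAC, a strict form of the sterol regulatory element, was in 1 of 41 windows, against 1.13% of all windows. CACGTG, an E-box, was in 6 of 41 windows (ELOVL5, INSIG1, LSS, SC5D and SCAP), against 7.26%. The motif AGATAA, of the kind bound by GATA factors, was in 2 of 41 (CYP51A1 and FDPS), against 10.3%. In the SREBF2 window the CCAAT match and the sterol element match do not overlap. A match is a run of letters, not a bound site, and windows of 1 gene can share sequence.

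The 6 control and transport genes differed less at day 4 than the enzymes. SREBF2 and SREBF1 encode the SREBP factors, SCAP their escort, INSIG1 and INSIG2 their retention proteins, and STARD4 a cholesterol carrier. In each GATA1s clone 3 of the 6 were higher, SREBF1, SREBF2 and SCAP, by 0.29 to 0.52 on the log2 scale. Of all genes, 58.9% were higher in 1KI9 and 54.8% in 1D5. With median-of-ratios scaling 0 of the 6 were called in either clone. SREBF2 was at 75.42, 76.22 and 76.43 in 1KI9 and at 83.77, 82.47 and 89.67 in 1D5, against 61.14, 59.46 and 57.2 in FL. Every GATA1s value was higher than every FL value, but the log2 difference of SREBF2 in 1KI9 was 0.35 as deposited and -0.03 with median-of-ratios scaling. SREBF1 overlaps RAI1 on the opposite strand.

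INSIG1, itself a classic SREBP target, was at 57.38, 57.67 and 58.3 in 1KI9 and at 71.95, 70.47 and 73.7 in 1D5, against 42.54, 43.54 and 45.65 in FL. The groups did not overlap, yet INSIG1 was not called (0.39 ± 0.40 in 1KI9, limma adjusted p = 0.385, and 0.70 ± 0.40 in 1D5, adjusted p = 0.127). The SE comes from a spread shared with expansion, where INSIG1 varied most between replicates. When only the libraries compared were fitted, INSIG1 was called at 0.39 ± 0.04 (adjusted p = 1.00e-05) in 1KI9 and 0.70 ± 0.05 (adjusted p = 4.85e-07) in 1D5. With median-of-ratios scaling INSIG1 differed by 0.01 in 1KI9, where the groups overlapped, and by 0.37 in 1D5, and neither was called. The fit to the libraries compared called 28 genes higher and 3 lower in 1KI9 and 27 higher and 2 lower in 1D5, while 82.9% and 75.2% of all genes tested were called in some direction. INSIG2 and STARD4 overlapped between the clones and were not called.

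Fatty acid genes followed the same order for most members. Of the 4 synthesis genes, 3 were higher in each GATA1s clone at day 4, where 58.9% of all genes were higher in 1KI9 and 54.8% in 1D5. FASN, fatty acid synthase, was at 39.48, 37.97 and 34.84 in 1KI9 and at 42.36, 38.23 and 41.71 in 1D5, against 22.78, 23.12 and 21.5 in FL. The groups did not overlap, and the log2 difference of FASN was 0.71 ± 0.18 in 1KI9 (limma adjusted p = 0.00157) and 0.83 ± 0.18 in 1D5 (adjusted p = 4.67e-04). With median-of-ratios scaling it was 0.34 and no longer called in 1KI9. ACACA, acetyl-CoA carboxylase, and ACLY, ATP citrate lyase, differed by 0.52 and 0.46 in 1KI9 and by 0.38 and 0.51 in 1D5, and neither was called in either clone with median-of-ratios scaling. ACSS2, which makes acetyl-CoA from acetate, was not called (-0.30 and -0.21), but was called lower in both clones with that scaling (-0.67 and -0.53). ACACA overlaps C17orf78 and ACSS2 overlaps GGT7 on the opposite strand.

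Of the 6 genes of desaturation, elongation and activation, 5 were higher in each clone at day 4 and 1 was lower. Of all genes, 58.9% were higher and 17.5% lower in 1KI9, and 54.8% and 16.3% in 1D5. SCD, the stearoyl-CoA desaturase, was at 139.56, 138.71 and 148.16 in 1KI9 and at 160.43, 148.02 and 160.19 in 1D5, against 69.56, 69.51 and 72.2 in FL, differences of 1.00 ± 0.19 and 1.14 ± 0.19, with 1 annotated pseudogene. ELOVL5, an elongase of polyunsaturated fatty acids, was at 86.18, 88.06 and 91.81 in 1KI9 and at 77.45, 71.66 and 76.67 in 1D5, against 42.5, 42.81 and 44.97 in FL. FL was lowest in each, and ELOVL5 was the member with the smallest adjusted p in 1KI9 at day 4 (1.01 ± 0.07, limma adjusted p = 9.02e-10). FADS1 and FADS2, the front-end desaturases, lie beside each other on chromosome 11 and overlap on opposite strands, and FADS2 also overlaps FEN1 on the same strand. FADS2 was at 142.45, 143.07 and 136.76 in 1KI9 and at 171.71, 178.48 and 171.75 in 1D5, against 78.79, 78.07 and 76.64 in FL (0.85 ± 0.26 and 1.15 ± 0.26). FADS1 differed by 0.88 and 1.04. Neither desaturase was called in 1KI9 with median-of-ratios scaling. ACSL3, a long-chain acyl-CoA synthetase, was higher by 0.30 and 0.31, but its difference was -0.07 and -0.01 with that scaling.

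ELOVL6, which elongates saturated fatty acids of the kind that fatty acid synthase makes, was the only member called lower than FL at day 4 as deposited. It was at 44.92, 43 and 47.15 in 1KI9 and at 54.93, 49.5 and 53.62 in 1D5, against 63.1, 64.36 and 65.45 in FL. Every FL library was above every GATA1s library. ELOVL6 fell by 0.51 ± 0.10 in 1KI9 (limma adjusted p = 1.70e-04) and by 0.28 ± 0.10 in 1D5 (adjusted p = 0.0167), and by 0.89 and 0.61 with median-of-ratios scaling. Without 1D5 day-4 replicate 2 the 1D5 difference was -0.24 (adjusted p = 0.0655).

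In expansion the replicates of each clone spread far more than at day 4, and in the same pattern. Replicate 2 was the highest of 3 for 23 of 34 genes in 1KI9, 33 in 1D5 and 31 in FL. Replicate 3 was the lowest for 27, 31 and 26 genes in the same clones. The pattern of replicate 2 highest and replicate 3 lowest in all 3 clones was met by 17 of 34 members and by 81 of 11110 genes in the fit (0.729%). INSIG1 was at 29.95, 36.5 and 15.85 in 1KI9 and at 51.12, 76.49 and 25.34 in 1D5, against 23.28, 54.71 and 11.79 in FL. MSMO1 was at 20.87, 20.9 and 9.73 in 1KI9 and at 32.96, 42.81 and 17.07 in 1D5, against 15.83, 31.06 and 8.77 in FL. For both genes, on the log2 scale, the distance between the highest and lowest replicate of each clone exceeded every difference between clone means.

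The median distance between the highest and lowest replicate over the 34 genes was 0.34 in 1KI9, 0.80 in 1D5 and 0.75 in FL on the log2 scale in expansion, beside 0.18, 0.19 and 0.24 over all genes. At day 4 it was 0.09, 0.12 and 0.11, beside 0.13, 0.16 and 0.13. PMVK, INSIG2, SREBF1, SCAP and ACSL3 had neither replicate 2 highest nor replicate 3 lowest in all 3 clones. MVK, MVD, IDI1, FDFT1, SQLE, CYP51A1, DHCR7, SCD, FADS1 and FADS2 were among those that had both. The globin share of expansion replicates 1, 2 and 3 was 4.54%, 4.03% and 4.12% in 1KI9, 4.60%, 4.48% and 6.84% in 1D5 and 10.6%, 5.55% and 5.73% in FL. It was thus lowest in replicate 2 of each clone and highest in replicate 3 of 1D5 but in replicate 1 of 1KI9 and FL, and its part in the pattern was not tested. Whether a number stands for a shared day, batch or culture is not stated.

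**Figure D4:**
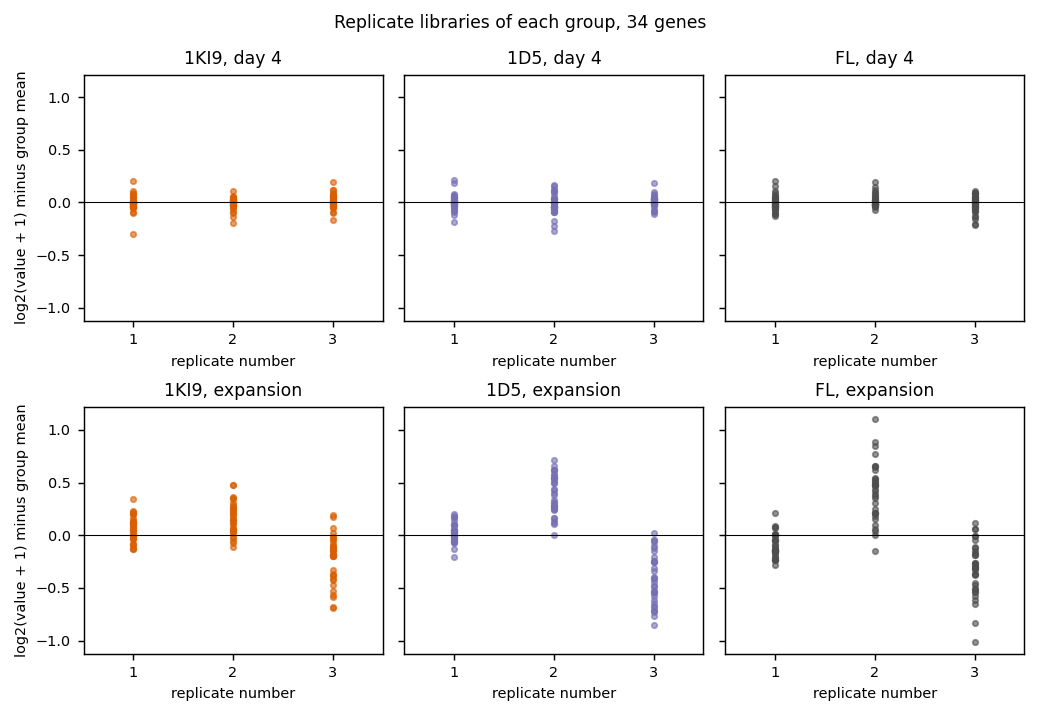
Each point is 1 of the 34 genes in 1 library, as log2(value + 1) minus the mean of its group, by replicate number. Day-4 libraries (top row) lie close to 0, and in expansion (bottom row) replicate 2 lies mostly above 0 and replicate 3 mostly below it in all 3 clones.

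Fewer members differed from FL in expansion than at day 4, and the part of the replicate spread in this was not tested. Other markers differed too. The monocyte and neutrophil sum was 222 to 265 in 1KI9 and 59.1 to 72.5 in 1D5, against 14.7 to 51.7 in FL. In it CD68 was at 129.69 to 189.3 and 24.18 to 37.14, against 3.57 to 5.42. The mast cell, basophil and eosinophil sum was 525 to 592 and 386 to 396, against 830 to 1246. In it PRG2 was at 48.95 to 88.21 and 73.18 to 96.13, against 536.25 to 873.25, while TPSB2 was higher (61.15 to 80.68 and 3.89 to 8.51, against 2.01 to 3.48). Their part in the results was not tested. In 1KI9, 8 of 34 genes were higher and 5 lower, where 41.0% of 11042 genes tested were higher and 18.5% lower, so fewer members were higher (23.5%) than genes in general. In 1D5, 10 were higher and 2 lower, where 18.7% of all genes were higher and 12.4% lower. The members' median was 0.01 in 1KI9 and 0.39 in 1D5, beside 0.13 and 0.00 over all genes. With median-of-ratios scaling 1KI9 had 6 higher and 11 lower (17.6% and 32.4% of members, against 27.2% and 36.8% of all genes), and 1D5 had 9 and 2 (26.5% and 5.88%, against 17.3% and 17.8%). The 1D5 count changed when single libraries were left out. It was 22 without 1D5 replicate 3, 20 without FL replicate 2, and 7 without 1D5 replicate 2 or FL replicate 3. Leaving out 1 library also leaves the clones with unequal replicate numbers. The part of the replicate pattern described above in these counts was not tested. Counts with the replicate number as a block are given below. The all-gene shares of fits without 1 library, here and below, are not given. Fitting only the libraries compared gave 5 (TM7SF2, INSIG2, ACSS2, FADS2 and ELOVL6), where 17.2% of all genes tested were called. FDPS, EBP, SREBF1, SREBF2, FADS1, ELOVL5 and ACSL3 in 1D5 were not called in that fit. The SE of the full fit comes from a spread shared with day 4. The median SD of the members on the log2 scale was 0.07 at day 4 and 0.34 in expansion.

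The expansion differences of TM7SF2, ACSS2 and ELOVL6 were called in both clones and held without any 1 library. TM7SF2 was at 36.25, 35.45 and 30.77 in 1KI9 and at 35.09, 44.01 and 28.31 in 1D5, against 13.92, 17.45 and 10.99 in FL. Every FL library was below every GATA1s library, with log2 differences of 1.24 ± 0.14 in 1KI9 (SE, limma adjusted p = 5.66e-07) and 1.28 ± 0.14 in 1D5 (adjusted p = 1.36e-06). TM7SF2 overlaps VPS51 on the same strand. ACSS2 was at 19.33, 15.81 and 15.27 in 1KI9 and at 12.56, 16.19 and 11.36 in 1D5, against 9.49, 9.77 and 5.62 in FL. The ACSS2 difference was 0.96 ± 0.16 in 1KI9 (adjusted p = 5.49e-05) and 0.65 ± 0.16 in 1D5 (adjusted p = 0.00500). ELOVL6 was at 39.22, 40.07 and 38.85 in 1KI9 and at 38.76, 46.38 and 32.5 in 1D5, against 25.59, 31.9 and 25.08 in FL, differences of 0.51 and 0.49, each ± 0.10. Both GATA1s clones were above FL in expansion for this gene, the reverse of day 4.

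FADS2 in expansion was at 90.43, 106.85 and 59.85 in 1KI9 and at 133.17, 204.33 and 86.23 in 1D5, against 50.09, 66.95 and 31.43 in FL. The 1D5 libraries all exceeded FL (1.47 ± 0.26, limma adjusted p = 2.57e-04), and the 1KI9 libraries overlapped it (0.80 ± 0.26, adjusted p = 0.0121). The 1KI9 difference was 0.63 (adjusted p = 0.0654) without 1KI9 replicate 2 and 0.52 (adjusted p = 0.0907) without FL replicate 3. In 1D5, FADS1 (53.62, 85.77 and 34.46, against 31.8, 46.35 and 21.61 in FL) was higher by 0.75 ± 0.25 (adjusted p = 0.0311) and EBP (50.29, 65.67 and 34.39, against 26.17, 39.12 and 27.25 in FL) by 0.66 ± 0.17 (adjusted p = 0.00633). Both overlapped FL. When only the libraries compared were fitted, neither was called. FADS1 was then at 0.75 ± 0.32 (limma adjusted p = 0.143) and EBP at 0.66 ± 0.22 (adjusted p = 0.0690). The FADS1 difference was no longer called without 1D5 replicate 1 (0.76, adjusted p = 0.0641) or 2 (0.43, adjusted p = 0.190), nor without FL replicate 1 (0.75, adjusted p = 0.0586) or 3 (0.49, adjusted p = 0.178).

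Lower in expansion were FASN, ACACA and STARD4 in 1KI9, and ELOVL5 and ACSL3 in each GATA1s clone. FASN was at 53.24, 68.38 and 54.17 in 1KI9, against 82.48, 124.86 and 74.96 in FL, without overlap (-0.65 ± 0.18, limma adjusted p = 0.00475), while 1D5 at 96.41, 118 and 64.15 was not called (-0.03). ELOVL5 fell by 0.27 ± 0.07 in 1KI9 and by 0.24 ± 0.07 in 1D5, and ACSL3 by 0.39 ± 0.09 and 0.26 ± 0.09. The 1D5 differences of ELOVL5 were no longer called without 1D5 replicate 3 (-0.18, adjusted p = 0.0961) or FL replicate 2 (-0.15, adjusted p = 0.109). That of ACSL3 in 1D5 was lost without 1D5 replicate 1 (-0.19, adjusted p = 0.151) or 3 (-0.27, adjusted p = 0.0565) and without FL replicate 2 (-0.21, adjusted p = 0.121) or 3 (-0.23, adjusted p = 0.111). INSIG2 was higher in both clones, at 7.24, 7.17 and 6.38 in 1KI9 and 5.83, 7.04 and 5.69 in 1D5, against 4.81, 3.93 and 4.71 in FL (0.53 and 0.39, each ± 0.12). In 1D5 it was 0.31 and not called without 1D5 replicate 2 (adjusted p = 0.108) or FL replicate 2 (adjusted p = 0.0933). The other higher calls in 1KI9 were HMGCS1, SREBF2 (0.39) and SCAP (0.34), and neither SREBF2 nor SCAP was called with median-of-ratios scaling. SREBF2 in 1KI9 was 0.25 (adjusted p = 0.0520) without FL replicate 3. STARD4 in 1KI9 (-0.44) was -0.34 without 1KI9 replicate 3, -0.43 without FL replicate 1 and -0.25 without FL replicate 2, and no longer called in any of the 3. The other higher calls in 1D5 were FDPS (0.42), SREBF1 (0.28) and SREBF2 (0.31). FDPS was 0.23 and SREBF1 0.15 without 1D5 replicate 2 and SREBF2 0.17 without 1D5 replicate 2 or FL replicate 3, all uncalled, and each was lost without at least 1 FL library.

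The GATA1s clones also differed from each other in expansion. Compared with 1D5, 1KI9 had 2 members higher, HMGCS1 and SCAP, and 9 lower (26.5%), where 33.4% of all genes tested were higher and 7.16% lower. With median-of-ratios scaling 1 was higher and 22 were lower, where 19.2% of all genes were higher and 25.8% lower. DHCR7 was at 27.65, 36.65 and 17.27 in 1KI9, against 56.25, 72.72 and 28.17 in 1D5 (-0.88 ± 0.32, limma adjusted p = 0.0379), and ACAT2 at 39.36, 44.29 and 26.78, against 61.83, 86.92 and 41.06 (-0.73 ± 0.22, adjusted p = 0.0141). Both overlapped. MVK (-0.74), FADS2 (-0.67), FASN (-0.62), FDPS (-0.52), STARD4 (-0.51), ACLY (-0.46) and SREBF1 (-0.37) made up the rest. When only the libraries compared were fitted, 2 members were higher and 7 lower, where 36.3% of all genes tested were called. In that fit MVK (limma adjusted p = 0.0772) and FADS2 (adjusted p = 0.0791) were not called, and DHCR7 was near the threshold (adjusted p = 0.0499). The count of the full fit was 4 without 1KI9 replicate 3, 7 without 1D5 replicate 1, 5 without 1D5 replicate 2 and 21 without 1D5 replicate 3. Here too leaving out 1 library left the replicate numbers unequal between the clones. HMGCS1, FDPS and SREBF1 were the only 3 of the 11 to hold without any 1 library.

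At day 4, 2 members were higher in 1KI9 than in 1D5, HMGCS1 and ELOVL5, and 0 lower by limma, where 12.5% of all genes were higher and 6.69% lower. ELOVL5 differed by 0.23 ± 0.07 (adjusted p = 0.0343) and was not called without any 1 of the 6 libraries of that comparison (0.20 to 0.26, adjusted p = 0.0535 to 0.130). Fitting only those 6 libraries gave 2 higher and 14 lower, where 25.6% of all genes tested were called in some direction.

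Between day 4 and expansion, which also differ in serum, dexamethasone, time and the scaling of the table, the GATA1s clones and FL moved differently. In FL, 6 of 34 genes were higher at day 4 and 20 lower, where 26.5% of 11015 genes tested were higher and 57.2% lower, so the lower share (58.8%) was near that of all genes. In 1D5, 7 were higher and 11 lower, where 31.9% and 47.0% of all genes were. In 1KI9, 10 were higher and 8 lower, where 22.2% and 52.2% were. The medians of the 34 genes were 0.11 in 1KI9, 0.00 in 1D5 and -0.67 in FL, beside -0.25, -0.15 and -0.38 over all genes. With median-of-ratios scaling the counts higher and lower became 18 and 5 in 1KI9 (52.9% and 14.7% of members, against 37.6% and 35.5% of all genes), 11 and 9 in 1D5 (32.4% and 26.5%, against 39.8% and 39.7%) and 11 and 12 in FL (32.4% and 35.3%, against 42.1% and 40.2%). The all-gene medians then lay between 0.00 and 0.02. The 1KI9 count was 11 without 1KI9 expansion replicate 3.

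**Figure D5:**
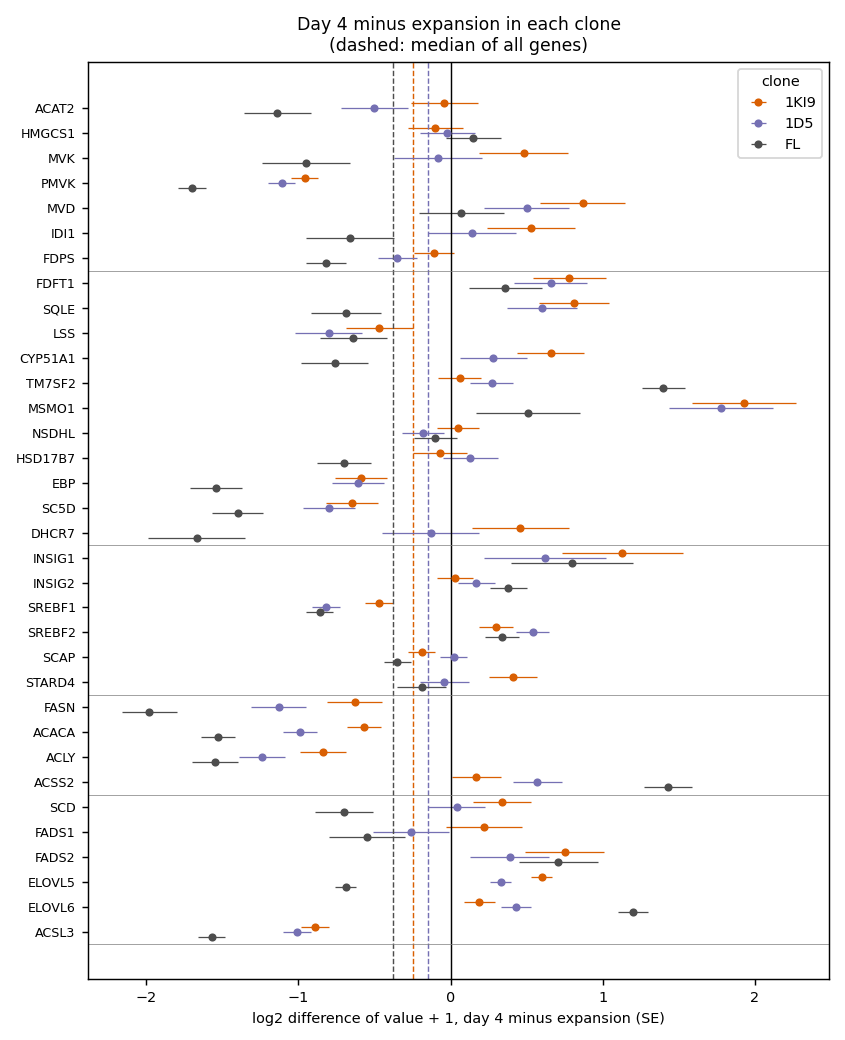
Log2 difference of value + 1, day 4 minus expansion, for each gene in 1KI9, 1D5 and FL, with its SE. Dashed lines give the median of all genes in each clone. FL lies to the left of both GATA1s clones for most genes. It lies to the right of them for TM7SF2, ACSS2 and ELOVL6, and by less for INSIG2 and HMGCS1.

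FASN, ACLY and ACACA, 3 of the 4 fatty acid synthesis genes, were lower at day 4 in every clone. FASN, whose day-4 and expansion values in each clone are given above, fell by 0.63 ± 0.18 in 1KI9 (limma adjusted p = 0.00427), by 1.13 ± 0.18 in 1D5 (adjusted p = 1.44e-05) and by 1.98 ± 0.18 in FL (adjusted p = 6.48e-09). With median-of-ratios scaling the 1KI9 difference was -0.33 and not called. ACLY fell to 42.1, 41.09 and 42.33 at day 4 in 1KI9, against 74.25, 83.96 and 69.72 in expansion, and to 31.11, 29.7 and 29.89 at day 4 in FL, against 76.48, 120.91 and 79.23 in expansion. ACLY stood at 44.07, 41.82 and 44.59 at day 4 in 1D5, against 111.78, 129.45 and 78.5 in expansion. No clone overlapped between the conditions. PMVK was at 13.49, 12.6 and 11.76 at day 4 in FL, against 38.82, 44.42 and 46.92 in expansion, a fall of 1.70 ± 0.09, beside falls of 0.96 in 1KI9 and 1.11 in 1D5. ACSL3 was at 16.35, 17.8 and 18.92 at day 4 in FL, against 48.64, 58.45 and 56.97 in expansion, a fall of 1.57 ± 0.09, beside 0.89 in 1KI9 and 1.01 in 1D5. ACACA fell by 0.57 in 1KI9, 0.99 in 1D5 and 1.53 in FL.

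MSMO1 went the other way. From the values above, it was higher at day 4 by 1.93 ± 0.34 in 1KI9 (limma adjusted p = 6.03e-05) and by 1.78 ± 0.34 in 1D5 (adjusted p = 1.21e-04), and it was not called in FL (0.51 ± 0.34, adjusted p = 0.175). In FL the highest expansion library, replicate 2, exceeded all day-4 libraries. INSIG1 was called higher in 1KI9 (1.13 ± 0.40, adjusted p = 0.0175), and without 1KI9 expansion replicate 3 it was 0.79 (adjusted p = 0.109). MVD was at 57.4, 54.24 and 50.53 at day 4 in 1KI9, against 33.78, 33.81 and 21.43 in expansion (0.87 ± 0.28, adjusted p = 0.0101), and was 0.66 (adjusted p = 0.0643) without that same library. TM7SF2, ACSS2 and ELOVL6 were higher at day 4 in FL by 1.40, 1.43 and 1.20 on the log2 scale, the largest rises of the list in FL. In 1KI9 none of these 3 passed (0.06, 0.17 and 0.19), and in 1D5 ACSS2 and ELOVL6 did (0.57 and 0.43).

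The difference of these differences was tested directly. For 1KI9 minus FL, day 4 minus expansion, 20 members were higher and 3 lower (58.8% and 8.82%), where 40.0% of all genes tested were higher and 22.0% lower. For 1D5 minus FL it was 15 higher and 3 lower, where 44.7% were higher and 14.8% lower, so the higher share of members (44.1%) was near that of all genes. With median-of-ratios scaling 1KI9 kept 20 of its 23 calls and 1D5 11 of its 18. On that scale 50.0% of members were higher and 11.8% lower in 1KI9 (31.7% and 29.8% of all genes), and 23.5% and 11.8% in 1D5 (24.6% and 28.1% of all genes). The largest were those of DHCR7 (2.13 ± 0.46 in 1KI9, limma adjusted p = 6.29e-04, and 1.54 ± 0.46 in 1D5, adjusted p = 0.00829) and SQLE (1.51 ± 0.33 and 1.29 ± 0.33). In the opposite direction were TM7SF2 (-1.35 ± 0.20 in 1KI9 and -1.13 ± 0.20 in 1D5), ACSS2 (-1.26 ± 0.23 and -0.86 ± 0.23) and ELOVL6 (-1.02 ± 0.14 and -0.77 ± 0.14). For those 3 genes the GATA1s clones exceeded FL in expansion, and at day 4 TM7SF2 and ACSS2 were not called and ELOVL6 was lower.

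Neighbouring pathways at day 4 were counted over lists of other genes. These counts stand beside the 58.9% of all genes that were higher and 17.5% lower in 1KI9, and 54.8% and 16.3% in 1D5. With median-of-ratios scaling these shares were 33.6% and 36.6% in 1KI9 and 29.9% and 35.2% in 1D5, and nothing is read from a list as a whole. Of 11 genes of sterol sensing and SREBP processing, 8 were higher and 1 lower in 1KI9, and 8 and 0 in 1D5, or 5 and 3 and 5 and 2 with median-of-ratios scaling. ERLIN1, a membrane protein of sterol-controlled degradation, averaged 21.2 ± 0.976 in 1KI9 and 17.6 ± 0.692 in 1D5, against 7.81 ± 0.341 in FL (SD, n = 3 each), and MBTPS2, the protease that makes the last cut in SREBP, 6.02 ± 0.649 and 5.33 ± 0.512, against 2.82 ± 0.0866. Both kept their calls with median-of-ratios scaling. Of 16 genes of sterol uptake, storage, transport and efflux, 11 were higher and 3 lower in 1KI9, and 13 and 3 in 1D5, or 7 and 4 and 8 and 4 with median-of-ratios scaling. NPC1 and NPC2, which hand lysosomal cholesterol on to other membranes, were higher, NPC1 at 18.8 ± 2.12 and 14.6 ± 0.693, against 6.90 ± 0.899 in FL. LIPA, the lysosomal acid lipase, was lower, at 0.0233 ± 0.0231 in 1KI9 and 0.0400 ± 0.0529 in 1D5, against 0.490 ± 0.0361 in FL, all under 1.

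The same all-gene shares stand beside the lists below. As deposited, 58.9% were higher and 17.5% lower in 1KI9, and 54.8% and 16.3% in 1D5. With median-of-ratios scaling they were 33.6% and 36.6% in 1KI9 and 29.9% and 35.2% in 1D5. Of 16 isoprenoid branch genes, 15 were higher in 1KI9 and 14 in 1D5 and 0 were lower, but 7 and 2 in 1KI9 and 5 and 0 in 1D5 with median-of-ratios scaling. COQ2, of ubiquinone synthesis, stood at 21.6 ± 0.0666 in 1KI9 and 18.6 ± 0.535 in 1D5, against 8.83 ± 0.278 in FL. Of 20 other fatty acid genes, 12 were higher and 7 lower in each clone, against 8 and 9 in 1KI9 and 8 and 8 in 1D5 with median-of-ratios scaling. ME1, the malic enzyme that supplies NADPH, was higher (1.37 in 1KI9 and 1.53 in 1D5), and MLXIPL, the carbohydrate-responsive factor ChREBP, was lower, at 1.61 ± 0.214 and 4.28 ± 0.372, against 14.1 ± 0.575 in FL. Of 27 glycerolipid and phospholipid genes, 15 were higher and 5 lower in 1KI9, and 13 and 6 in 1D5, which became 9 and 10 in 1KI9 and 8 and 10 in 1D5 with that scaling. CHKA, choline kinase, was higher (26.3 ± 1.32 in 1KI9 and 19.0 ± 1.51 in 1D5, against 8.29 ± 0.445 in FL), and PISD, which makes phosphatidylethanolamine in mitochondria, was lower (76.5 ± 2.64 and 64.9 ± 3.04, against 176 ± 6.84).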

How the data were processed

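Poly(A) RNA libraries of 18 samples in 6 groups were deposited as 1 table of 13358 genes. Trim Galore 0.60, STAR 2.7, RSEM 1.31 and the build hg38 (GRCh38.p12) are named in the submitters' processing notes. The authors deposited TPM for expansion. Day-4 values are deposited as a signal resembling TPM, with library sums of 814583 to 1081251. The FL sums exceed the total that TPM allows, and no source used here gives the further scaling. TPM had been assumed for both conditions when the tests were designed, and the log-scale test was kept. TPM keeps no read depth, so no counting intervals were computed, and no source used here says whether counting used strand.

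Fold changes are on the log2(value + 1) scale, so those of low genes are understated. The fit held the 11110 genes with 3 or more libraries at 1 or above. Of these, 68 listed at 0 in the whole of expansion and 27 in the whole of day 4 had no test in that condition. limma 3.58.1 in R 4.3.3 estimated 6 group means from the 18 libraries, using a variance trend with level. Benjamini-Hochberg adjustment covered every gene tested, at a threshold of 0.05. The 11 comparisons were each GATA1s clone against FL and 1KI9 against 1D5 in each condition, day 4 against expansion in each clone, and for each GATA1s clone the change of its difference from FL. The fit was checked on simulated data with 1 spread per gene over all 18 libraries. That check could not cover a spread that differs between the conditions, as it did for these genes. Alternatives were a pseudocount of 0.1, no filter, median-of-ratios scaling, rescaling without 25 globin and mitochondrially encoded genes, only the libraries compared, the replicate number as a block, and leaving out each library. Values in every library are given for up to 6 passing members with the largest difference in each comparison, other members shown in full were chosen after their values were seen, and up to 3 passing genes are named per neighbouring list. Gene positions and overlaps come from GENCODE on GRCh38. The members and lists were chosen with earlier results of these data known, and no set test was run.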

Additional observations from a re-analysis of the deposited data

Results flagged for a closer look

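The difference between 1KI9 and FL at day 4 differed from that in expansion for 23 members by limma with Benjamini-Hochberg adjustment. Values are log2 differences of differences, and positive ones mean a higher 1KI9 relative to FL at day 4. Positive values in 1KI9 were those of ACAT2 (1.10), MVK (1.42), PMVK (0.74), IDI1 (1.18), FDPS (0.70), SQLE (1.51), CYP51A1 (1.42), MSMO1 (1.42), HSD17B7 (0.63), EBP (0.96) and SC5D (0.75). They also included DHCR7 (2.13), SREBF1 (0.39), STARD4 (0.59), FASN (1.36), ACACA (0.97), ACLY (0.70), SCD (1.04), ELOVL5 (1.28) and ACSL3 (0.68). Negative values in 1KI9 were those of TM7SF2 (-1.35), ACSS2 (-1.26) and ELOVL6 (-1.02). With median-of-ratios scaling 20 of the 23 were still called. Leaving out 1 library ended the calls of IDI1 (0.80 to 0.92), MSMO1 (0.98 to 1.08), HSD17B7 (0.39 to 0.61) and STARD4 (0.41 to 0.59) in 1KI9, and HSD17B7 was 0.39 without FL expansion replicate 2.

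For 1D5 against FL the same test passed for 18 members. Positive values in 1D5 were those of PMVK (0.60), FDPS (0.47), SQLE (1.29), CYP51A1 (1.04), MSMO1 (1.27), HSD17B7 (0.83), EBP (0.94) and SC5D (0.60). They also included DHCR7 (1.54), SCAP (0.37), FASN (0.86), ACACA (0.54), SCD (0.74), ELOVL5 (1.02) and ACSL3 (0.56). Negative values in 1D5 were those of TM7SF2 (-1.13), ACSS2 (-0.86) and ELOVL6 (-0.77). With median-of-ratios scaling 11 of the 18 were still called. In 1D5, leaving out 1 library ended the calls of FDPS (0.30 to 0.47), MSMO1 (0.83 to 1.27), SC5D (0.36 to 0.63), SCAP (0.30) and SCD (0.48 to 0.72). Without 1D5 expansion replicate 3, FDPS was 0.30, SC5D 0.39 and SCD 0.48. Without FL expansion replicate 2, MSMO1 was 0.83 and SC5D 0.36. Each of these values crosses the separately scaled expansion and day-4 values.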

How the results depend on the processing

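Several numbers of members called moved by 1.5 times or more, and the cause was not tested. With median-of-ratios scaling, 17 members were called for 1KI9 against FL at day 4 (26 as deposited) and 23 for 1KI9 against 1D5 in expansion (11 as deposited). With only the libraries compared, 5 were called for 1D5 against FL in expansion (12 in the full fit) and 16 for 1KI9 against 1D5 at day 4 (2 in the full fit). In those fits 17.2% and 25.6% of all genes tested were called. With the replicate number as a block, 19 were called for 1KI9 against 1D5 in expansion and 18 for 1D5 against FL in expansion (11 and 12 without the replicate block). The all-gene shares of the block fits are not given, so these counts are not set against genes in general. Leaving out each library in turn gave 7 to 22 for 1D5 against FL and 4 to 21 for 1KI9 against 1D5 in expansion, 1 for 1KI9 against 1D5 at day 4, and 11 to 19 for day 4 against expansion in 1KI9. It gave 25 to 26 for 1D5 and 25 to 27 for 1KI9 against FL at day 4.

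Median-of-ratios scaling reversed SREBF1 (-0.09), SREBF2 (-0.03) and ACSL3 (-0.07) for 1KI9 and SREBF1 (0.00) and ACSL3 (-0.01) for 1D5 against FL at day 4, and SCAP between day 4 and expansion in FL (0.10, or 0.02 rescaled without globin and mitochondrially encoded genes). Beside these reversals, of 193 results for called members, 40 kept their direction but were no longer called with median-of-ratios scaling, 19 with that rescaling, 13 with only the libraries compared, 8 with no filter, 3 with a pseudocount of 0.1 and 0 with the replicate block. Over all genes, 8 of 27 same-numbered pairs of libraries had deviations correlated above 0.1 (-0.15 to 0.43), and in 0 of 9 comparisons did all 3. The numbers were therefore not taken to pair the libraries. That check was over all genes, and the 34 genes shared a pattern by number in expansion. For these genes the main fit counts the shared pattern as spread, so their SEs and uncalled differences in expansion include it. The replicate block, which fits a shift for each number, gave the higher expansion counts stated above. Depth is unknown, so no counting error could be given.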
